A study of Mus musculus with 9 samples.

Results

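The genes described here are the nuclear-encoded subunits and assembly factors of the mitochondrial respiratory chain in mouse CD8+ T cells. They were chosen by name: every protein-coding row of the deposited count table whose symbol starts with Nduf, Sdhaf, Uqcr, Atp5 or with Cox followed by a digit from 4 to 8, and the genes Sdha, Sdhb, Sdhc, Sdhd, Cyc1 and Cycs. This gave 99 of 53679 gene IDs (21917 of them protein-coding). By complex, 46 were counted in complex I (among them Ndufa4, which carries a complex I name but sits in complex IV), 8 to complex II, 10 to complex III with cytochrome c, 18 to complex IV and 17 to complex V. Of these, 94 passed the filter on low counts and were tested: 45, 8, 10, 14 and 17 by complex. The 5 others were Ndufa4l2, Cox4i2, Cox7b2, Cox8b and Cox8c.

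The study compared 3 populations of CD8+ T cells of C57BL/6 mice, cultured and activated for 3 days: Tc0 cells with no agent, Tc0 cells with coenzyme A (CoA, the acyl carrier that cells build from pantothenate) and Tc22 cells with no agent. Tc22 cells are CD8+ T cells that secrete interleukin-22, and Tc0 is the usual name of cells given no polarising cytokine. Each population was taken from each of 3 mice, numbered 715, 725 and 728, which gave 9 libraries and 3 libraries per group. The protocol names a vehicle for cultures without CoA. Sources used here do not give the CoA dose, how either population was polarised, or the sex and age of the mice.

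The respiratory chain passes electrons from NADH (complex I) and succinate (complex II) through ubiquinone, complex III and cytochrome c to oxygen at complex IV. The protons pumped on the way drive ATP synthase, or complex V. Assembly factors such as the Ndufaf and Sdhaf proteins help to build a complex and are not part of the finished enzyme. Resting T cells have few mitochondria, and activation sets off their growth. Complex II is the only complex with no subunit encoded in mitochondrial DNA, and its succinate dehydrogenase is also an enzyme of the tricarboxylic acid cycle.

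Gene counts summed to between 21841034 and 36254631 per library, and the members took 1.02% to 1.23% of them. Markers of CD8 T cells summed to 2019 to 3249 CPM (counts as a share of the library, scaled to a common total) in the 9 libraries, and Cd8a was at 641 to 878 CPM. The CD8 T cell markers were lower with CoA: 5 of 10 fell and 0 rose against Tc0, and their summed level was 2458 to 3249 CPM in Tc0 and 2019 to 2541 CPM with CoA. Interleukin-22 (Il22) had 24 to 29 counts in the Tc0 libraries, 154 to 252 in the Tc22 libraries and 292 to 1978 in the libraries with CoA. Markers of 8 other cell types are given with the comparison of CoA and Tc0 below. The Tc0 library of mouse 728 stood apart from the other Tc0 libraries along the GC content of the transcripts, as described below the levels.

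Levels per transcript length differed widely between complexes. They are given as RPKM, the CPM per kilobase of transcript, from the length of 1 main transcript per gene, and the levels of short mRNAs depend on that choice of transcript. The median over tested genes was 56.7 RPKM in complex I, 23.1 in complex II, 88.9 in complex III, 206 in complex IV and 236 in complex V, over all 9 libraries. Atp5b, which encodes the catalytic beta subunit of ATP synthase, was the highest member at 837 RPKM. As counted here, complex I ranged from 4.14 RPKM for the assembly factor Ndufaf8 to 290 RPKM for Ndufa4, which sits in complex IV. Complex II ranged from 2.38 RPKM for the assembly factor Sdhaf3 to 132 RPKM for Sdhd, a membrane anchor. Complex III ranged from 44.8 RPKM for Cyc1, the cytochrome c1 subunit, to 344 RPKM for Uqcrh, the hinge subunit. Complex IV ranged from 0.512 RPKM for Cox6a2 to 356 RPKM for Cox7c. Atp5s, at 4.01 RPKM, was the lowest tested gene with an Atp5 name; it is a factor B protein rather than a core subunit.

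**Figure D1:**
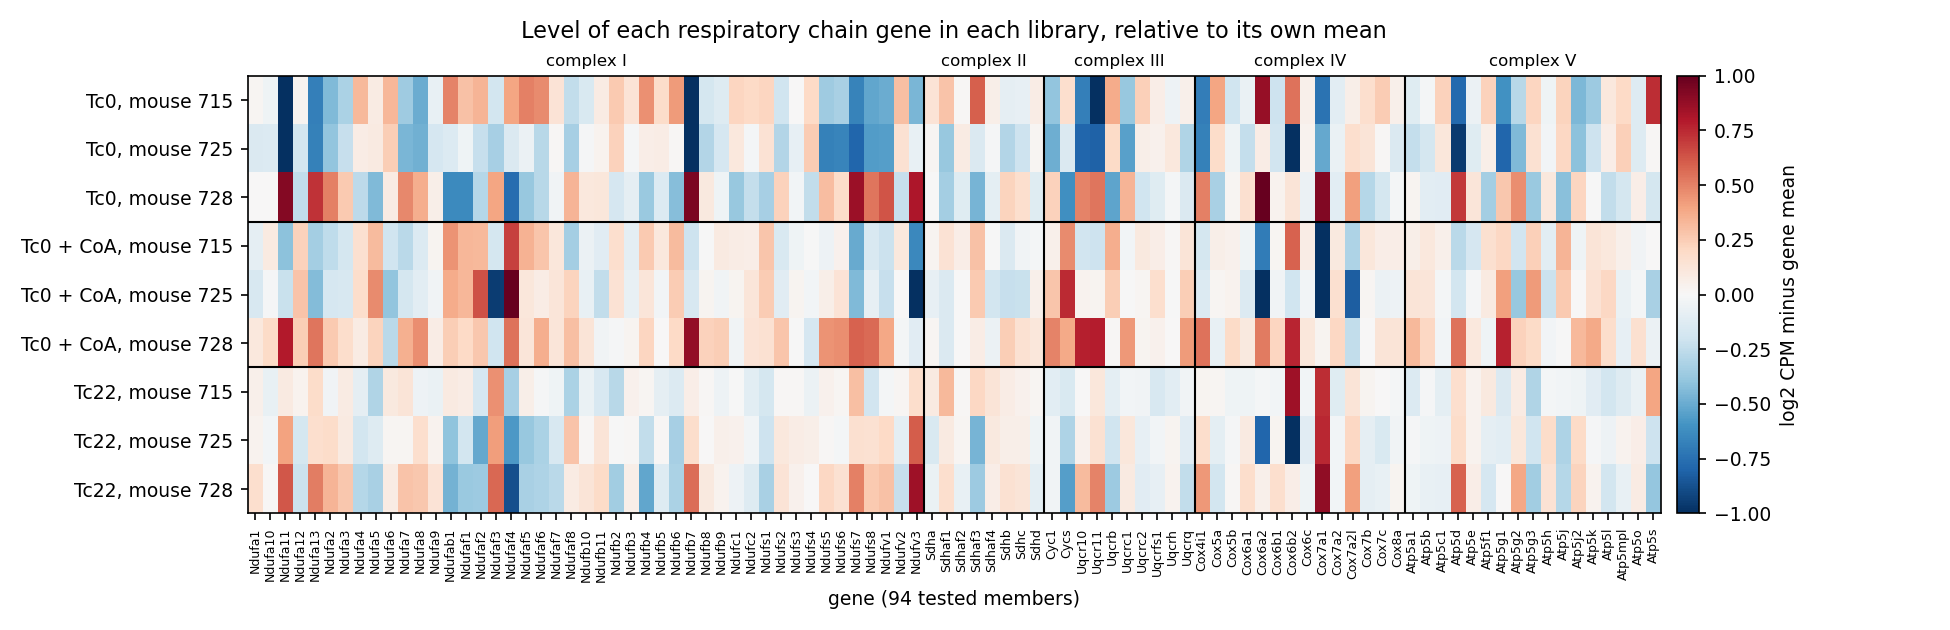
Level of each of the 94 tested members (columns, by complex) in each of the 9 libraries (rows), as log2 CPM minus the gene's own mean over the 9 libraries; red is above and blue below that mean, and the colours stop at 1 and -1. Genes such as Ndufa11, Ndufb7, Uqcr11 and Atp5d are low in the Tc0 libraries of mice 715 and 725 and high in the Tc0 library of mouse 728, while most complex II columns stay pale.

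The Tc0 library of mouse 728 held more of the GC-rich members and less of the GC-poor ones than its counterparts from mice 715 and 725. Ndufb7, a complex I subunit, was at 10.4, 9.37 and 41.3 CPM in the Tc0 libraries of mice 715, 725 and 728. Ndufa11, a membrane-arm subunit of complex I, was at 5.95, 6.57 and 25.1 CPM. In both genes only the library of mouse 728 was high, and the Tc22 levels lay in between (22.5, 24.2 and 31.6 CPM for Ndufb7). Ndufaf4, with the second lowest GC content of the tested members at 39.5%, went the other way: 47.2, 32.5 and 21.1 CPM. Across the 94 tested members, the difference of this library from the mean of the other Tc0 libraries followed the GC content of the main transcript with Pearson's r = 0.786 and Spearman's rho = 0.806. Over all genes tested the values were 0.652 and 0.730. The other libraries of mouse 728 deviated in the same direction, with r = 0.741 for CoA and 0.714 for Tc22 over the members. These correlations are across genes of the same libraries, which are not independent replicates, and they carry no test. The share of counts from replication-dependent histone genes, whose RNA has no poly(A) tail, was 0.668% in this library and 0.140% and 0.188% in the other Tc0 libraries; its part in the pattern was not tested.

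**Figure D2:**
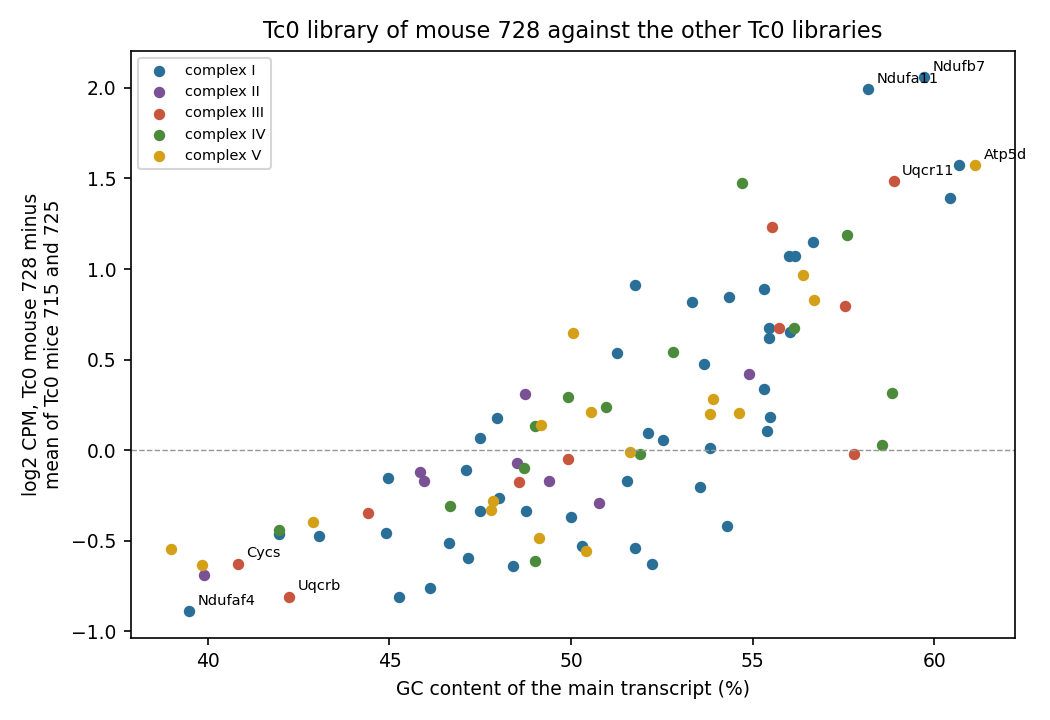
Each point is 1 of the 94 tested members: the horizontal axis is the GC content of its main transcript in percent, the vertical axis the log2 CPM in the Tc0 library of mouse 728 minus the mean of its counterparts from mice 715 and 725, with colour for the complex. Points climb from Ndufaf4 at the lower left to Ndufb7 at the upper right, with r = 0.786.

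With CoA, 11 members differed from Tc0 cells: 8 rose and 3 fell. The members that rose were cytochrome c (Cycs), the complex III subunit Cyc1, the complex I genes Ndufa5, Ndufa12, Ndufs6 and Ndufaf4, and the ATP synthase genes Atp5g1 and Atp5k. Cox7a2l, a gene of the Cox7a family, and the complex I subunits Ndufa6 and Ndufv3 fell. The calls use a Benjamini-Hochberg adjusted p under 0.05 over all 15348 genes tested, from edgeR's quasi-likelihood test with terms for group and mouse. Among all genes, 12.5% were called higher and 12% lower in this comparison, against 8.51% and 3.19% of the tested members, so calls were no more frequent among the members than among all genes. The median log2 fold change was 0.10 over the members, with 71 of 94 above 0, and -0.01 over all genes. By mouse, the median difference of the members was 0.02, 0.12 and 0.15 on the log2 scale in mice 715, 725 and 728, with 51, 65 and 72 of 94 members higher with CoA. In bulk RNA, a change in the makeup of the cells and a change of RNA per cell cannot be told apart.

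Cycs, the mobile carrier between complexes III and IV and a trigger of apoptosis when released from mitochondria, was at 296, 239 and 172 CPM in Tc0 cells of mice 715, 725 and 728. With CoA it was at 366, 442 and 343 CPM, and in Tc22 cells at 237, 213 and 180 CPM. Every library with CoA was above every Tc0 and every Tc22 library. Its log2 fold change with CoA against Tc0 was 0.73 ± 0.14 (SE), a 1.66-fold rise with an adjusted p of 0.00671. Cyc1 was at 50.7, 47.5 and 78.4 CPM in Tc0 cells and at 69.1, 80.9 and 94.2 CPM with CoA. It was higher with CoA in each mouse, but the groups overlapped, with a high Tc0 level in mouse 728 (log2 fold change 0.48 ± 0.14, adjusted p = 0.0313). Complex III, with cytochrome c counted in it, had the highest median of the 5 complexes, at 0.36 on the log2 scale, with 9 of 10 genes above 0. Its summed level was 1431, 1306 and 1252 CPM in Tc0 cells and 1535, 1616 and 1589 CPM with CoA. Apart from Cycs and Cyc1, no complex III gene passed the test: the small subunits Uqcr10 and Uqcr11 reached log2 fold changes of 0.51 and 0.62, with adjusted p-values of 0.0647 and 0.0533. Uqcrc1, a core subunit, and Uqcrfs1, the Rieske iron-sulfur protein, had log2 fold changes of 0.32 ± 0.15 and 0.09 ± 0.09. The hinge gene Uqcrh was at 181 to 202 CPM in Tc0 cells and 187 to 190 CPM with CoA.

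Among the complex I genes, Ndufaf4, an assembly factor that works together with Ndufaf3, had the largest rise among the called members. It was at 57.5, 75.4 and 52.3 CPM with CoA, above all Tc0 values given earlier, and at 28.5, 24.1 and 19.5 CPM in Tc22 cells. Its log2 fold change against Tc0 was 0.93 ± 0.18 (adjusted p = 0.00821). The accessory subunit Ndufa12 was at 63.5, 54.9 and 52.5 CPM in Tc0 cells and at 73.3, 76.0 and 73.8 CPM with CoA, a rise of 0.39 ± 0.10 with groups that did not overlap (adjusted p = 0.0223). Ndufa5 rose by 0.42 ± 0.12 (adjusted p = 0.0349), from 35.6, 36.0 and 24.8 CPM to 42.0, 46.9 and 39.3 CPM. Ndufs6, a zinc-binding subunit, rose by 0.47 ± 0.15 (adjusted p = 0.0423) with overlapping groups, from 19.5, 15.4 and 27.7 CPM to 25.1, 26.8 and 33.7 CPM.

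Subunits of the same complex fell at the same time. Ndufa6, an accessory subunit of the LYR family that binds the acyl carrier protein, was at 62.5, 58.8 and 52.6 CPM in Tc0 cells. With CoA it was at 43.3, 37.6 and 41.1 CPM, below every Tc0 library, a log2 fold change of -0.51 ± 0.10 (adjusted p = 0.00925). Ndufv3, a small subunit of the NADH-binding arm, was at 52.5, 68.5 and 126 CPM in Tc0 cells and at 46.0, 32.4 and 66.4 CPM with CoA. It was lower with CoA in each mouse, by -0.72 ± 0.19 (adjusted p = 0.0224), while the groups overlapped. The partner subunit Ndufv1, which binds NADH and FMN, had a log2 fold change of 0.10 ± 0.18 and did not pass the test. Ndufab1, the mitochondrial acyl carrier protein that carries a phosphopantetheine group made from CoA, was at 94.1, 60.6 and 43.0 CPM in Tc0 cells and at 91.0, 86.1 and 79.1 CPM with CoA. Its level with CoA was higher in 2 of 3 mice (log2 fold change 0.44 ± 0.16, adjusted p = 0.0647).

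In complex IV, Cox7a2l was the only called gene. Its protein is known for a role in joining complex III and complex IV into supercomplexes, and C57BL/6 mice carry a shortened allele. It was at 203, 218 and 258 CPM in Tc0 cells, 157, 110 and 164 CPM with CoA and 213, 225 and 259 CPM in Tc22 cells. The libraries with CoA lay below all others, a log2 fold change of -0.66 ± 0.13 against Tc0 (adjusted p = 0.00774). In complex V, Atp5g1, a gene for the proton-carrying c subunit, rose by 0.82 ± 0.17 (adjusted p = 0.00909), from 32.5, 28.6 and 59.7 CPM to 57.1, 65.9 and 84.3 CPM. Atp5k, the e subunit, which helps ATP synthase to form dimers, rose by 0.41 ± 0.10 (adjusted p = 0.0156), from 49.9, 55.7 and 64.1 CPM to 70.3, 70.9 and 83.4 CPM. For the catalytic Atp5b, 1580, 1419 and 1484 CPM in Tc0 cells stood against 1719, 1739 and 1841 CPM with CoA. These groups did not overlap, and the difference of 0.24 ± 0.10 did not pass the adjusted threshold (adjusted p = 0.104).

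Promoters of 3 members are shown here because many members carry a match to the motif of NRF1, a transcription factor known to act on nuclear genes of the respiratory chain. Cycs and Ndufaf4 are shown as promoters with a match and Ndufv3 as one without. They do not stand for the directions of change: Ndufa6 fell with CoA and held a match, and Atp5g1 and Ndufa12 rose and held none. The sequences are from RefSeq (GRCm38.p6) and end at the base before the start site, 5′ to 3′ on the strand of the gene, with matches in capitals. That of Ndufv3 is shorter, at 134 bases, because exons of a neighbouring coding gene were left out; its full window held no match either. Cycs lies at chr6:50562563-50566538 on the minus strand, Ndufaf4 at chr4:24898083-24905001 on the plus strand and Ndufv3 at chr17:31520115-31531331 on the plus strand (GRCm38). The printed windows are chr6:50566570-50566819, chr4:24897833-24898082 and chr17:31519981-31520114.
Cycs: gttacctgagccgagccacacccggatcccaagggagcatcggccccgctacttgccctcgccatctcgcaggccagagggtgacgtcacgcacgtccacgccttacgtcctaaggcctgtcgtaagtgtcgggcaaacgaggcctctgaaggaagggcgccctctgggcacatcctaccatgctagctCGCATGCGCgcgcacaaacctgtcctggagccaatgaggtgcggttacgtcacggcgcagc
Ndufaf4: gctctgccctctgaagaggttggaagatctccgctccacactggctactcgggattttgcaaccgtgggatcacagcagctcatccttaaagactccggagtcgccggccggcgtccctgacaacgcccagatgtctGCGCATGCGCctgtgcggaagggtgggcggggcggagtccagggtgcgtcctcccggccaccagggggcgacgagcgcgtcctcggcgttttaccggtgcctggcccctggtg
Ndufv3: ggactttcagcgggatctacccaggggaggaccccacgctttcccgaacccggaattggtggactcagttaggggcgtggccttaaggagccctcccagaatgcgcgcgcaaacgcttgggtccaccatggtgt
The match in Cycs began 61 bases before the start site. In Ndufaf4 the motif matched on both strands, shifted by 1 base, beginning 113 and 112 bases before the start.

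The motif searched was GCGCANGCG on both strands, in windows from 250 bases before to 50 bases after each start. Of 81 members with a promoter in the table, 25 held it (30.9%), against 1901 of 27025 genes in the whole table (7.03%). Among the members that rose with CoA, 5 of 7 with a promoter held it (Atp5k, Cycs, Ndufa5, Ndufaf4 and Ndufs6; not Atp5g1 and Ndufa12), against 20 of 72 other tested members. Of the members that fell, Ndufa6 held it and Cox7a2l and Ndufv3 did not. A match to the ETS family motif CCGGAAG was found in 25.9% of members and 9.93% of all genes, and one to the YY1 motif AANATGGC in 24.7% and 6.96%. The motif of the estrogen-related receptors, TNAAGGTCA, was found in 3 members (3.70%, against 1.43% of all genes), among them Atp5g3 and Ndufb4. A match describes the letters only. The mRNA of NRF1's own gene, Nrf1, is in the list of biogenesis regulators given below.

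**Figure D3:**
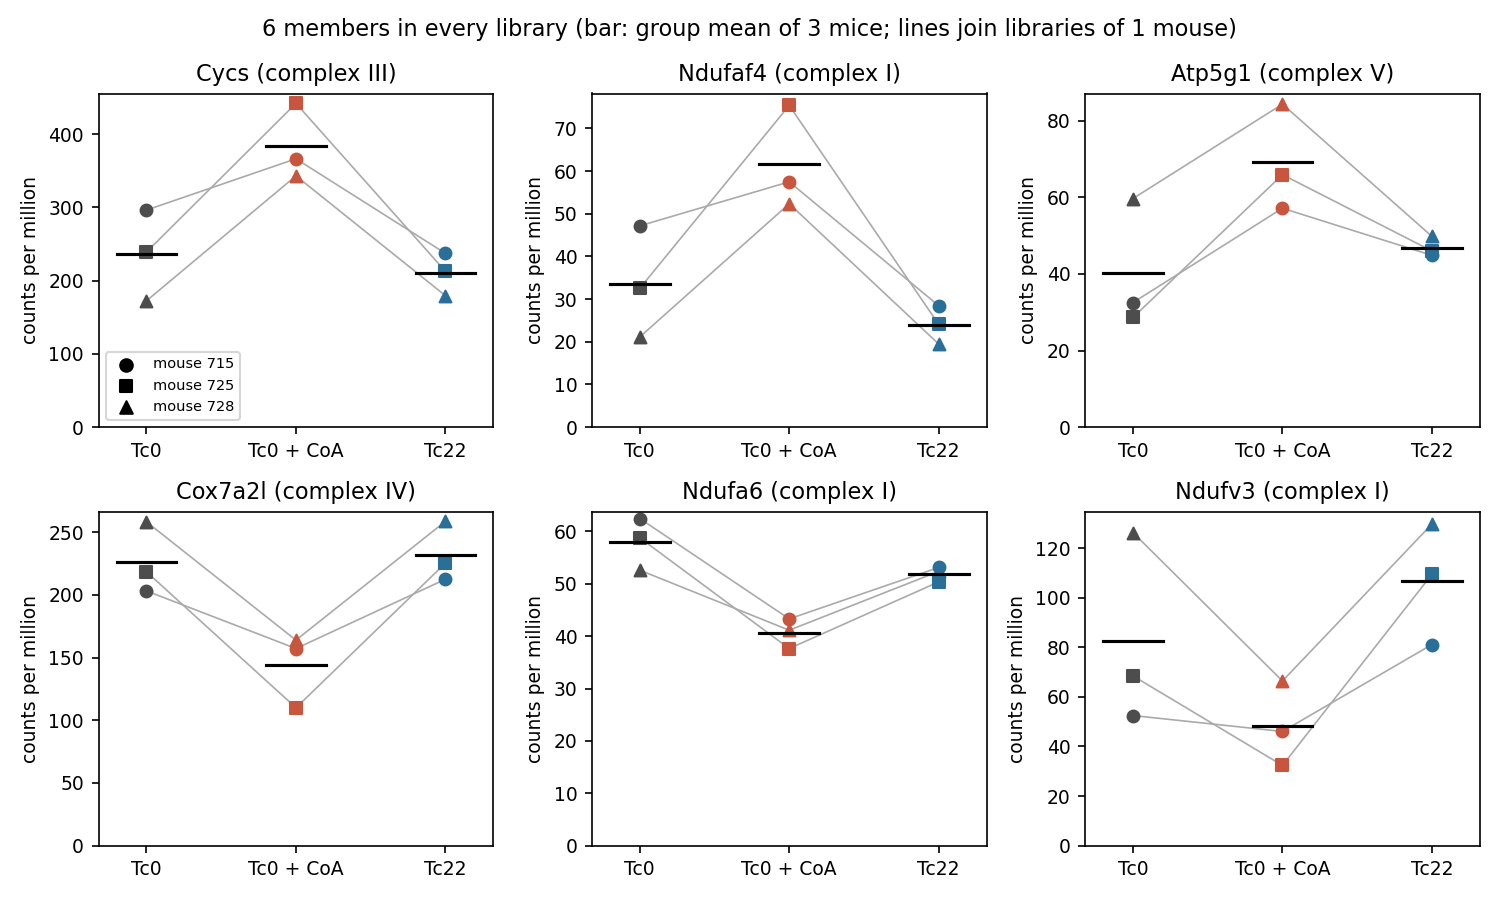
CPM of 6 members in every library, by group on the horizontal axis; marker shapes are mice, lines join libraries of the same mouse, and black bars are means of 3 mice. Cycs, Ndufaf4 and Atp5g1 peak with CoA, while Cox7a2l, Ndufa6 and Ndufv3 are lowest with CoA.

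No complex II gene passed the test in any comparison. Of its 8 genes, 0 had an unadjusted p under 0.05 with CoA against Tc0, where 38.1% of all genes had one. In Tc22 cells 1 gene had one against Tc0 (21.2% of all genes) and 1 against CoA (43.3%). Sdha, the flavoprotein subunit that oxidises succinate, was at 286 to 313 CPM in Tc0 cells, 269 to 290 CPM with CoA and 256 to 302 CPM in Tc22 cells. Sdhb, the iron-sulfur subunit, was at 91.6 to 131, 95.7 to 133 and 117 to 125 CPM in the same order. Sdhc and Sdhd, the membrane anchors, had log2 fold changes with CoA of 0.01 ± 0.10 and 0.06 ± 0.10. The 4 Sdhaf assembly factors had log2 fold changes with CoA from -0.06 for Sdhaf4 to 0.21 for Sdhaf3. DESeq2 called 0 complex II genes as well. With single libraries left out, the only complex II call was Sdhaf3, lower in Tc22 cells than with CoA without the CoA library of mouse 715.

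The calls with CoA against Tc0 depended on single libraries to different degrees. The calls of Cycs and Cox7a2l held when any single library of the 9 was left out. Both were lost when all 3 libraries of mouse 725 or all 3 of mouse 728 were left out, as was that of Ndufaf4. Of the single libraries, only Tc0 cells of mouse 725 ended the calls of Atp5g1 and Ndufaf4 when left out (adjusted p = 0.0509 and 0.0514). Ndufa6 lost its call without the Tc0 or the CoA library of mouse 725 (0.0609 at most). Ndufv3 lost its call without any of the Tc0 or CoA libraries of mice 725 and 728 (0.105 at most), and Ndufa12 without Tc0 cells of mouse 725 or CoA cells of mouse 725 or 728 (0.137 at most). Cyc1 and Atp5k lost theirs without the Tc0 library of mouse 715 or 725 or the CoA library of mouse 725 or 728 (0.180 and 0.0946 at most). Ndufa5 was lost without any of 6 libraries, the Tc0 and CoA libraries of mice 725 and 728 and the Tc22 libraries of mice 715 and 725 (0.164 at most). Ndufs6 was lost without any of 6 as well, the Tc0 libraries of mice 715 and 725, the CoA libraries of mice 725 and 728 and the Tc22 libraries of mice 715 and 725 (0.230 at most). Leaving out Tc0 cells gave 1 higher and 1 lower (mouse 725) or 16 and 2 (mouse 728). Leaving out CoA cells gave 13 and 3 (mouse 715), 3 and 1 (mouse 725) or 3 and 2 (mouse 728). In these fits, 14.9%, 4.77% and 5.13% of all genes were called higher and 12.6%, 3.59% and 4.22% lower. With all 3 libraries of mouse 725 left out, a fit added after the data were seen, it was 0 and 0. Calls were fewer over all genes as well in that fit, with 468 of 15592 genes higher and 342 lower. Without mouse as a term, 0 rose and 2 fell, Cox7a2l (adjusted p = 0.0403) and Ndufa6 (0.0300), while Cycs missed the threshold at 0.0550. Among all genes, 5.21% were then called higher and 4.31% lower. In another added fit, which corrects each library for its trend with GC content, 21 rose and 4 fell, all 11 calls among them. These were 22.3% and 4.26% of the members, where that fit called 17.8% of all genes higher and 16.0% lower. With Tc0 cells of mouse 725 left out, 4.13% and 3.17% of all genes were called, and with those of mouse 728 left out 13.4% and 11.9%.

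**Figure D4:**
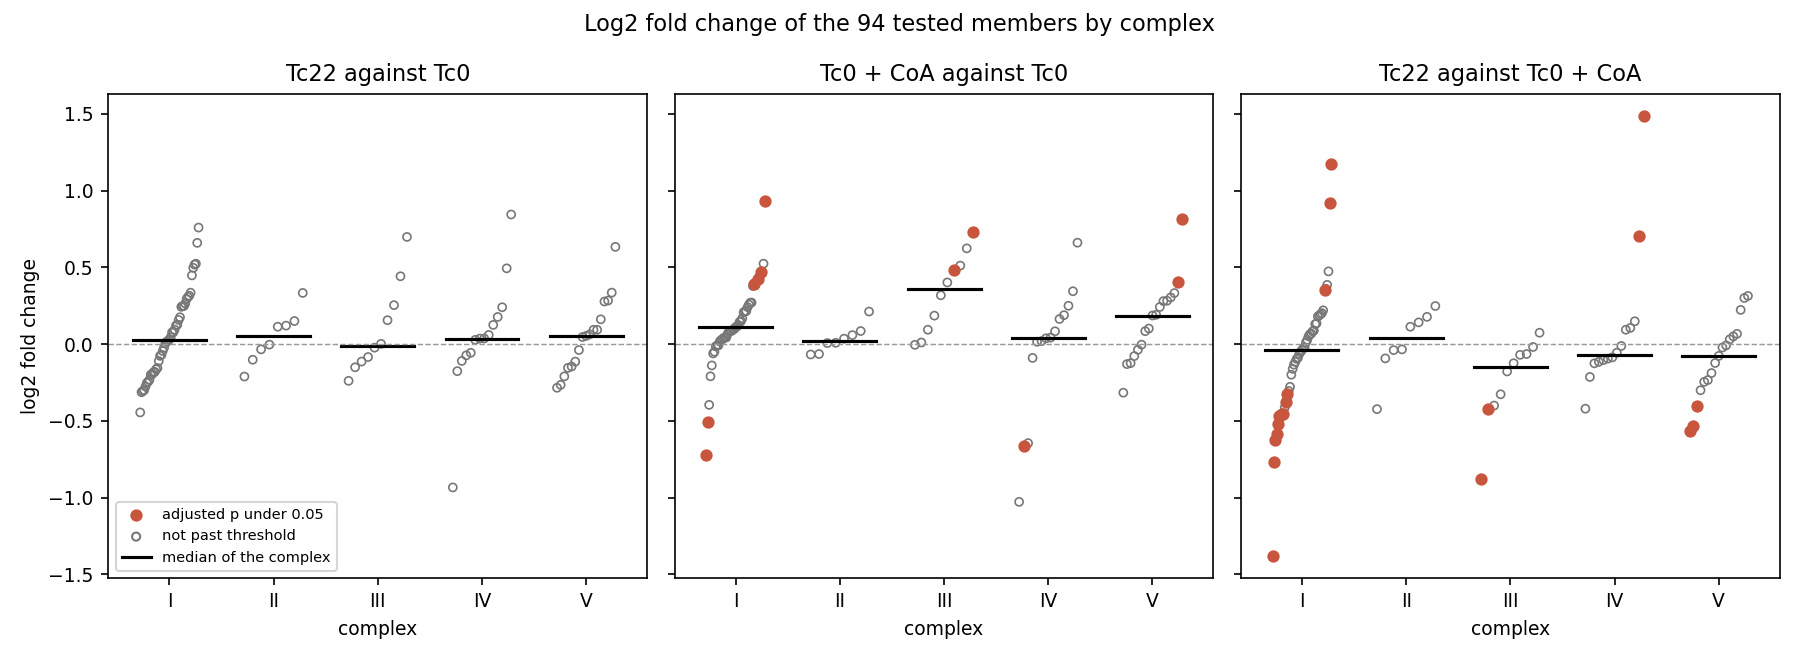
Log2 fold change of each tested member (points) by complex in the 3 comparisons; filled points passed an adjusted p of 0.05, open points did not, and bars are medians of the complexes. No point is filled for Tc22 against Tc0, and no complex II point is filled in any panel.

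Markers of other cell types were low beside those of CD8 T cells. Summed over each list, B cell markers reached 6.97 to 11.8 CPM over the 9 libraries and erythroid markers 0.289 to 0.799 CPM. Markers of natural killer cells summed to 1.13 to 2.74 CPM in Tc0 cells and 2.13 to 4.55 CPM with CoA. The macrophage and monocyte list reached 4.97 to 8.29 CPM in Tc0 cells and 5.47 to 15.4 CPM with CoA, the dendritic cell list 3.73 to 5.0 and 5.46 to 9.40 CPM, and the granulocyte, mast cell and basophil list 0.409 to 1.31 and 1.78 to 4.48 CPM. The CD4 and regulatory T cell list reached 8.67 to 14.7 CPM in Tc0 cells and 12.2 to 15.8 CPM with CoA. Of the gamma delta T cell list, 2 of 4 genes were in the table, and they summed to 123 to 162 CPM in Tc0 cells and 78.2 to 110 CPM with CoA. Siglech of the dendritic cell list and S100a9 of the granulocyte list had 0 counts in every library. The part of these differences, and of the lower CD8 T cell markers with CoA, in the members' differences was not tested.

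In Tc22 cells against Tc0 cells, no member passed the test. The count was 0 higher and 0 lower among 94 tested, where 2.48% of all genes were called higher and 1.21% lower. At an unadjusted p under 0.05, 14 members were higher and 5 lower (14.9% and 5.32%, against 11.7% and 9.48% of all genes). DESeq2 called 3 members higher, Atp5d, Ndufa11 and Uqcr11, and 4.13% of all genes. The median log2 fold change was 0.04 over the members and -0.01 over all genes, and the medians of the 5 complexes lay between -0.01 (complex III) and 0.06 (complex II). The members with the smallest p-values were Uqcr11, Cox4i1, Atp5d, Ndufaf3, Atp5j2 and Cox7a1. Uqcr11, a small subunit of complex III, was at 11.4, 14.0 and 35.6 CPM in Tc0 cells and at 26.6, 27.3 and 34.6 CPM in Tc22 cells, a log2 fold change of 0.70 ± 0.21 (adjusted p = 0.108). Cox4i1, the common isoform of the regulatory subunit 4, was at 102, 104 and 235 CPM in Tc0 cells and at 168, 187 and 223 CPM in Tc22 cells (0.49 ± 0.16, adjusted p = 0.131). In both genes the Tc22 cells of mice 715 and 725 were above their Tc0 cells, and those of mouse 728 were slightly below. Atp5d, the delta subunit of the rotor stalk, showed the same pattern, with 34.9, 30.8 and 97.8 CPM in Tc0 cells and 67.2, 68.1 and 89.8 CPM in Tc22 cells (0.63 ± 0.21, adjusted p = 0.137). Ndufaf3, an assembly factor, was higher in Tc22 cells of each mouse, at 9.88, 8.91 and 14.8 CPM against 15.4, 15.1 and 16.8 CPM (0.52 ± 0.18, adjusted p = 0.156).

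This count changed most without the Tc0 library of mouse 728. Without it, 16 members rose in Tc22 cells and 7 fell, among them Atp5d (log2 fold change 0.99, adjusted p = 0.00895), Uqcr11 (1.01, 0.0135) and Cox4i1 (0.73, 0.0133). In that fit, 9.91% of all genes were called higher and 7.10% lower, against 16 and 7 of the 94 members. Without the Tc22 library of mouse 728, 9 rose and 0 fell (9.57% of the members higher, against 2.88% of all genes higher and 0.821% lower). Without all 3 libraries of this mouse, 11 rose and 0 fell (11.8%, against 5.33% higher and 1.60% lower). The log2 fold change of Tc22 against Tc0 followed the GC content of the transcript across the 94 members with r = 0.658 and rho = 0.723, against 0.333 and 0.487 over all genes; with CoA against Tc0 the values for the members were 0.055 and 0.199. With the correction for GC content and mouse as a term, 0 members were called in either direction, the median was -0.0067 and the log2 fold changes of Atp5d, Uqcr11 and Cox4i1 were 0.28, 0.39 and 0.21.

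Between Tc22 cells and Tc0 cells with CoA, 20 members differed: 5 were higher in Tc22 cells and 15 lower. These were 5.32% and 16.0% of the tested members, where 16.0% of all genes were called in each direction. This comparison and that of CoA with Tc0 share the libraries with CoA, so their values are not independent. Ndufaf4 was lowest relative to CoA, with a log2 fold change of -1.38 ± 0.19 (adjusted p = 0.00113), and Cycs fell by 0.88 ± 0.14 on the log2 scale (adjusted p = 0.00197), each at the CPM values given earlier. The other lower members of complex I were the subunits Ndufa5, Ndufa12, Ndufab1, Ndufb4, Ndufb6 and Ndufs1 and the assembly factors Ndufaf1 and Ndufaf2. Ndufa4, counted in complex I by its name but part of complex IV, was lower as well. Ndufs1, the large iron-sulfur subunit of the NADH arm, was at 215, 212 and 197 CPM with CoA and at 157, 154 and 142 CPM in Tc22 cells, with no overlap (-0.47 ± 0.11, adjusted p = 0.0116). Ndufaf2 was at 11.7, 14.5 and 11.2 CPM with CoA and at 8.29, 6.52 and 7.23 CPM in Tc22 cells (-0.77 ± 0.19, adjusted p = 0.0133). Ndufb6, an accessory subunit of the membrane arm, was at 77.4, 74.0 and 71.4 CPM with CoA and at 56.7, 49.3 and 50.0 CPM in Tc22 cells (-0.52 ± 0.14, adjusted p = 0.0203). Ndufab1 was at 71.1, 50.6 and 48.1 CPM in Tc22 cells, below every library with CoA (-0.62 ± 0.16, adjusted p = 0.0143). In complex III, Uqcrb, which binds ubiquinone, was lower in Tc22 cells (-0.43 ± 0.13, adjusted p = 0.0322), and in complex V Atp5g1, Atp5g3 and Atp5j were. The exons of Atp5j share 397 bases with Gabpa on the opposite strand. Of the CD8 T cell markers, 6 of 10 were higher in Tc22 cells than with CoA and 0 lower, with summed levels of 2487 to 3097 CPM in Tc22 cells; their part in the members' differences was not tested.

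The 5 members higher in Tc22 cells than with CoA were Cox7a1, Cox7a2l, Ndufv3, Ndufaf3 and Ndufa6. Ndufv3 was at 81.1, 109 and 130 CPM in Tc22 cells, above every library with CoA (1.17 ± 0.19, adjusted p = 0.00239). Cox7a2l differed by 0.70 ± 0.13 (adjusted p = 0.0038) and Ndufaf3 by 0.92 ± 0.19 (adjusted p = 0.00568). Ndufaf3 was at 9.95, 5.82 and 9.76 CPM with CoA. Its exons share 48 bases with Impdh2 on the opposite strand, a far more abundant gene (141186 counts in all, against 3170), and it is not known from the labels whether counting used the strand. Cox7a1, the heart and muscle isoform of subunit 7a, was low everywhere: 0.755, 0.886 and 2.40 CPM in Tc0 cells, 0.607, 0.615 and 1.29 CPM with CoA and 2.11, 2.13 and 2.33 CPM in Tc22 cells (Tc22 against CoA 1.49 ± 0.33, adjusted p = 0.00801).

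In this comparison, Cycs, Ndufaf4, Cox7a2l, Ndufv3 and Ndufaf3 stayed called when any single library of the 9 was left out, and 15 others did not. With all 3 libraries of mouse 725 left out, Ndufaf3 was not called (adjusted p = 0.06035). Leaving out CoA cells of mouse 728 gave 4 higher and 2 lower, and leaving out CoA cells of mouse 725 gave 4 and 5. Leaving out Tc22 cells gave 4 and 5 (mouse 715), 3 and 3 (mouse 725) and 8 and 10 (mouse 728). In these 5 fits, 7.32% to 13.9% of all genes were called higher and 6.61% to 11.8% lower. With the other libraries left out in turn the count lay between 5 and 6 higher and 12 and 21 lower. Among all genes, 14.9% to 18.7% were then called higher and 14.3% to 19.0% lower. Ndufa6 lost its call without any of 5 libraries, the CoA libraries of mice 725 and 728 and each Tc22 library (adjusted p = 0.149 at most). Ndufab1, Uqcrb and Ndufb6 lost theirs when CoA cells of mouse 725 or 728 or Tc22 cells of mouse 715 or 725 were left out (0.101, 0.179 and 0.131 at most), and Ndufs1 without 3 of these, all but the CoA library of mouse 725 (0.0909 at most). Ndufaf2 lost its call without CoA cells of mouse 725 or 728 or Tc22 cells of mouse 725 (0.0883 at most) and Cox7a1 without the Tc22 library of mouse 725 (0.0520). Without mouse as a term, 2 members were higher (Cox7a2l and Ndufaf3) and 5 lower (Atp5g3, Cycs, Ndufa5, Ndufaf2 and Ndufaf4). These were 2.13% and 5.32% of the members, against 6.63% and 7.04% of all genes. The log2 fold change of Tc22 against CoA followed GC content across the members with r = 0.441 and rho = 0.4365. Each was above its value over all genes, where rho was 0.1941. With the correction for GC content and mouse as a term, 19 of the 20 calls were kept. Ndufa6 was not called in that fit (log2 fold change 0.267, adjusted p = 0.0849).

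The c subunit of ATP synthase, the ring that protons turn, is made from 3 genes with the same mature protein, Atp5g1, Atp5g2 and Atp5g3. Their shares of the summed level varied between libraries. Atp5g1 made up 8.24%, 7.83% and 13.1% of their summed RPKM in Tc0 cells of mice 715, 725 and 728, 13.2%, 14.6% and 16.6% with CoA and 11.5%, 11.4% and 11.4% in Tc22 cells. The share of Atp5g1 was thus higher with CoA than in Tc0 cells of the same mouse in 3 of 3 mice, with the groups only just apart. Atp5g3 made up 52.7%, 54.6% and 30.4% in Tc0 cells, 49.0%, 53.5% and 40.3% with CoA and 37.5%, 38.7% and 32.4% in Tc22 cells. Atp5g2 held the rest, with its highest shares in the Tc0 library of mouse 728 (56.6%) and the Tc22 library of mouse 728 (56.2%). By level, Atp5g3 was at 253, 289 and 246 CPM with CoA and at 175, 187 and 169 CPM in Tc22 cells, and fell (-0.57 ± 0.12, adjusted p = 0.00743). This call was lost without CoA cells of mouse 728 or Tc22 cells of mouse 725 (0.0595 at most), and that of Atp5g1 in the same comparison (-0.53 ± 0.17, adjusted p = 0.0340) without any single library of either group (0.153 at most). The shares carry no test.

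**Figure D5:**
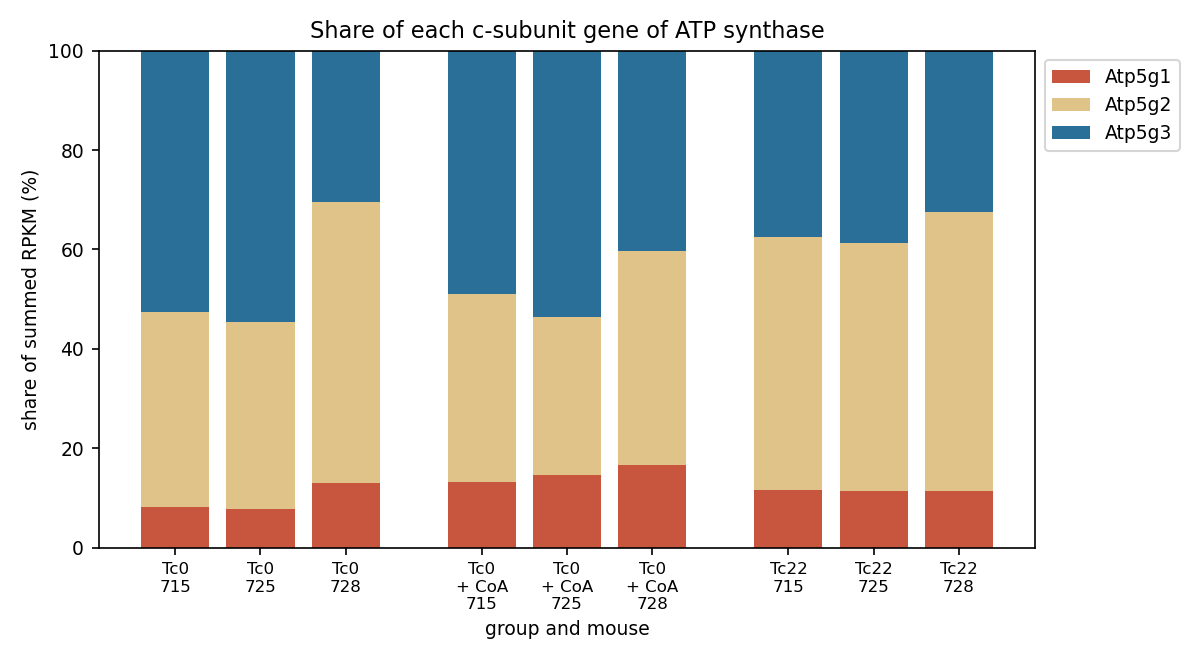
Share of Atp5g1, Atp5g2 and Atp5g3 in their summed RPKM (vertical axis, percent) in each of the 9 libraries (bars, by group and mouse). The Atp5g1 segment is 13.2% to 16.6% with CoA and 7.83% to 13.1% in Tc0 cells, and Atp5g3 is smallest in the Tc0 library of mouse 728, at 30.4%.

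Several subunits have tissue-specific isoforms, and the common one of each pair had the higher level. Cox4i1 was at 232 RPKM on average and Cox4i2, the lung and hypoxia isoform, at 0.178. Cox6a1 was at 168 RPKM and the muscle form Cox6a2 at 0.512. Cox6b1 was at 230 RPKM and the testis form Cox6b2 at 6.73, and Cox7a2 was at 225 RPKM and the muscle form Cox7a1 at 3.71. Cox8a was at 312 RPKM, while Cox8b, Cox8c and Cox7b2 had 0 counts in all 9 libraries, which allows at most 0.137 CPM in the shallowest library (3 counts; counting error only). Ndufa4 was at 290 RPKM and its hypoxia-induced relative Ndufa4l2 at 0.0592. Neither the common forms Cox4i1, Cox6a1, Cox6b1, Cox7a2 and Cox8a nor the subunit genes Cox5a and Cox5b passed the test in any comparison. Their log2 fold changes lay between -0.09 and 0.34 with CoA against Tc0.

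Other genes of the pathway were taken from lists and are given beside the members. The mitochondrially encoded subunits, transcribed inside the organelle, gave 7 of 13 higher and 0 lower with CoA against Tc0, with a median log2 fold change of 0.62. mt-Nd3, a complex I subunit, was at 158, 166 and 99.0 CPM in Tc0 cells and at 273, 516 and 242 CPM with CoA (1.23 ± 0.18, adjusted p = 0.0028), and mt-Cytb, the cytochrome b of complex III, differed by 0.96 ± 0.13 (adjusted p = 0.0024). In Tc22 cells, mt-Nd4l was lower than in Tc0 cells (-1.65 ± 0.29, adjusted p = 0.0138) and was the only one of the 13 to pass; it was named after its values were seen, and it was not called without mouse as a term (adjusted p = 0.139). Against CoA, 12 of 13 were lower in Tc22 cells, where 16.0% of all genes were called in each direction. Without Tc0 cells of mouse 725 or 728 or CoA cells of mouse 725 or 728, the count with CoA was 3, 5, 3 and 3 of 13. In these fits, 4.13%, 13.4%, 4.77% and 5.13% of all genes were called higher and 3.17%, 11.9%, 3.59% and 4.22% lower. In Tc22 cells against Tc0 the count ranged from 0 to 7 with libraries left out.

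Assembly factors without the names of the members gave smaller counts. With CoA against Tc0, the complex IV list gave 5 higher and 1 lower of 24: Cox10, Cox17, Sco1, Coa7 and Lrpprc rose and Cox20 fell. Cox17, a copper chaperone, was at 121, 65.5 and 59.3 CPM in Tc0 cells and at 126, 113 and 112 CPM with CoA (0.59 ± 0.15, adjusted p = 0.0204). Lrpprc, which stabilises mitochondrial mRNA, was at 192, 184 and 151 CPM and at 248, 301 and 256 CPM (0.62 ± 0.11, adjusted p = 0.0055). The complex I list gave 3 higher and 0 lower of 8 (Ecsit, Timmdc1 and Tmem70), the complex III list 1 and 0 of 6 (Uqcc1, 0.62 ± 0.12, adjusted p = 0.0086) and the complex V list 1 and 0 of 5 (Atpaf2, 0.56 ± 0.12, adjusted p = 0.0120). The medians of the 4 lists lay between 0.15 and 0.26. Without the Tc0 library of mouse 725, the CoA library of mouse 725 or the CoA library of mouse 728, 1 complex IV gene and 0 complex I genes were called in each case. In Tc22 cells against Tc0, 0 genes of these 4 lists passed in either direction, where 2.48% of all genes were called higher and 1.21% lower. At an unadjusted p under 0.05, 1 was higher and 1 lower, against 11.7% and 9.48% of all genes. DESeq2 also called 0. Against CoA, the 4 lists gave 3 higher and 9 lower (complex IV), 0 and 4 (complex I), 0 and 2 (complex III) and 0 and 3 (complex V). Of all genes, 16.0% were called in each direction there. These counts fell when single libraries were left out. Without CoA cells of mouse 725 or 728 or 1 Tc22 library, 7.32% to 13.9% of all genes were called higher. Called lower were 6.61% to 11.8%. The complex IV count of 12 was 3 or 2 without CoA cells of mouse 725 or 728, and 6, 3 and 5 without Tc22 cells of mice 715, 725 and 728. The complex I and the complex III list had 1 call each in every one of these 5 fits. The complex V list had 0 calls without CoA cells of mouse 725 or 728 or Tc22 cells of mouse 715 or 725, and 2 without CoA cells of mouse 715 or Tc22 cells of mouse 728.

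Ubiquinone synthesis genes, which make the electron carrier between complexes I, II and III, gave 4 higher and 1 lower of 13 with CoA against Tc0. Pdss1, which makes its side chain, rose by 0.81 ± 0.13 (adjusted p = 0.0046), and Coq4 rose by 1.27 ± 0.21 (adjusted p = 0.0049), from 2.4 to 4.3 CPM in Tc0 cells to 5.1 to 9.7 CPM. The 5 calls of this comparison became 2 without Tc0 or CoA cells of mouse 725 or CoA cells of mouse 728. In those fits, 4.13% to 5.13% of all genes were called higher and 3.17% to 4.22% lower. The calls became 3 without Tc0 cells of mouse 715 or Tc22 cells of mouse 715 or 725 (10.4% to 10.7% and 9.87% to 10.0%). They became 8 without CoA cells of mouse 715 (14.9% and 12.6%). Coq8a, an atypical kinase of the synthesis complex, was the only gene of this list called in Tc22 cells against Tc0: 4.3, 3.0 and 7.3 CPM in Tc0 cells, 12, 13.6 and 17.1 CPM in Tc22 cells and 5.1, 3.4 and 4.9 CPM with CoA (1.60 ± 0.22, adjusted p = 0.0045). Without mouse as a term Coq8a was not called (adjusted p = 0.0761); 4 genes of the list were called without Tc0 cells of mouse 728, and 2 with all 3 libraries of that mouse left out. Import and outer membrane genes, through which all members' proteins enter mitochondria, had the most calls: 14 of 21 rose and 0 fell with CoA, with a median of 0.60. Tomm40, the import pore, differed by 1.31 ± 0.22 (adjusted p = 0.0046), and Hspd1, the matrix chaperonin, was at 1380, 1044 and 682 CPM in Tc0 cells and at 1850, 2341 and 1704 CPM with CoA (0.97 ± 0.16, adjusted p = 0.0047). The import count was 5 without Tc0 cells of mouse 725, 6 without CoA cells of mouse 725 and 5 without CoA cells of mouse 728. In these fits, 4.13%, 4.77% and 5.13% of all genes were called higher and 3.17%, 3.59% and 4.22% lower. Against Tc22 cells, the import genes gave 14 of 21 higher with CoA and 0 lower, where 16.0% of all genes were called in each direction. Of 16 regulators of mitochondrial biogenesis, including Nrf1, Gabpa, Esrra, Yy1 and Tfam, 1 rose and 0 fell with CoA. This was Pprc1, a coactivator of the PGC-1 family (0.75 ± 0.20, adjusted p = 0.0230), whose call was among those lost without Tc0 cells of mouse 715 or 725 or CoA cells of mouse 725 or 728 (0 called), while 5 were called without the Tc0 library of mouse 728. In Tc22 cells, 0 of the 16 and 0 of the 21 import genes passed against Tc0, where 2.48% of all genes were called higher and 1.21% lower. At an unadjusted p under 0.05, 0 and 2 were higher and 1 and 0 lower, against 11.7% and 9.48% of all genes. DESeq2 called 1 import gene.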

How the data were processed

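RNA of 9 cultures was sequenced after rRNA depletion with a stranded, paired-end total RNA kit, per the labels' protocols. The authors deposited 1 table of counts per gene, in whole numbers, and the same counts for each library. STAR 2.5.2, RSEM 1.3.0, GRCm38 and mm10 are named per the submitters' processing notes; no source used here gives their roles, the annotation release or the strand setting. RSEM's estimates need not be whole, so the counts may have been rounded. All 53679 gene IDs were read, and 53650 were found in GENCODE M21 (GRCm38), from which biotypes, lengths and GC content were taken; counts of overlapping genes could be split between them, and 35 members share exon bases with another gene.

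Counts were tested with edgeR 4.0.16 in R 4.3.3 (TMM, filterByExpr by group, quasi-likelihood F test, group and mouse as terms, all 9 libraries, 15348 genes, Benjamini-Hochberg adjustment over all of them, threshold 0.05, 4 residual degrees of freedom). Errors are standard errors of the log2 fold change. CPM values use TMM-scaled library sizes, except those of Cd8a, which use the totals. RPKM values divide by the length of 1 main transcript per gene, the best principal isoform. The fits were checked on simulated data. Mouse is a term because each mouse gave all 3 populations, per the series' design text; the r of deviations from the group means between libraries of 1 mouse was 0.0699 to 0.617 over 9 pairs (mean 0.360). With mouse as a term, the tests use the spread that remains between cultures after differences between the 3 mice are taken out.

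Members and lists were chosen with earlier results of these data known. Named members are up to 12 called ones of smallest p in each comparison (6 of smallest p where fewer pass), the highest and the lowest of each complex, those below the filter and a preset list of paralogs and core subunits; other lists give up to 3 genes of smallest p. Other called genes are named only to account for a count, and Uqcr10, Uqcrb, Ndufb7 and Ndufa11 were named after their values were seen. Alternatives were DESeq2 1.42.0, other scalings, no filter, no mouse term, the compared groups alone and each library left out. Correcting for GC content and leaving out a whole mouse were chosen after seeing the data. The promoter table held 81 of the 99 members.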

Additional observations from a re-analysis of the deposited data

How the results depend on the processing

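The median log2 fold change of the members kept its sign with libraries left out, ranging from 0.017 to 0.0872 for Tc22 against Tc0, from 0.0713 to 0.156 for CoA against Tc0 and from -0.0902 to -0.0277 for Tc22 against CoA. For Tc22 against Tc0 it fell below 0 with the correction for GC content, to -0.0067 with mouse as a term and -0.0123 without it; under the other settings no median changed sign. No named member changed direction where it was called. Counts of calls were less stable. With 1 library or 1 mouse left out, they ranged for Tc22 against Tc0 from 0 to 16 members higher and 0 to 7 lower, and by list from 0 to 1 (complex III and V assembly, regulators), 1 to 4 (ubiquinone), 0 to 7 (mitochondrially encoded) and 0 to 3 (import). For CoA against Tc0 they ranged from 0 to 16 members higher and 0 to 3 lower, and from 0 to 8 (complex IV assembly), 0 to 1 (complex III and V), 0 to 4 (complex I), 2 to 8 (ubiquinone), 0 to 5 (regulators), 3 to 9 (mitochondrially encoded) and 3 to 14 (import). For Tc22 against CoA they ranged from 2 to 8 members higher and 2 to 21 lower, and from 2 to 14 (complex IV), 1 to 2 (complex III), 1 to 4 (complex I), 0 to 3 (complex V and regulators) and 8 to 16 (import).

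Without the replicate block, that is without mouse as a term, the fit called for CoA against Tc0 0 members higher and 2 lower, and 2 complex IV, 0 complex V, 2 ubiquinone, 0 regulator, 2 mitochondrially encoded and 5 import genes. For Tc22 against CoA it called 2 members higher and 5 lower. It also called 2 complex IV, 1 complex III, 0 complex V, 1 regulator, 6 mitochondrially encoded and 9 import genes there. For Tc22 against Tc0 it called 0 ubiquinone and 0 mitochondrially encoded genes. Of all genes it called 5.21% higher and 4.31% lower for CoA against Tc0 and 6.63% and 7.04% for Tc22 against CoA. With no filter, 4 of 94 members were higher in Tc22 against Tc0, where 831 of 26961 genes were, and 2 import genes were called. DESeq2 called 3 members higher and 1 import gene for Tc22 against Tc0, where it called 621 of 15050 genes higher. For CoA against Tc0 it called 13 of 94 members higher, where it called 1995 of 15348 genes higher. In the compared groups alone, 3 ubiquinone genes were called for CoA against Tc0. Correction for GC content, chosen after seeing the data, gave 21 members higher for CoA against Tc0. It also gave 10 complex IV, 2 complex V, 5 regulator and 11 mitochondrially encoded genes there, and 26 members lower for Tc22 against CoA. The 21 and 26 were 22.3% and 27.7% of the members, against 17.8% and 21.2% of all genes. Without the block this correction gave 0 mitochondrially encoded genes for Tc22 against Tc0 and 1 complex III gene for Tc22 against CoA. The cause of these changes was not tested. Depth limits the low members: Cox6a2 and Cox7a1 rest on low counts in every library.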

Other observations

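The naming rule also matched 13 gene IDs that are not annotated as protein-coding. Ndufb1-ps, annotated as a long noncoding RNA although its name is that of a complex I subunit, had 2668 to 5115 counts per library. Its Tc0 libraries had 5115, 2708 and 3412 counts in mice 715, 725 and 728, those with CoA 3540, 3401 and 2668 and the Tc22 libraries 3905, 3624 and 3210. The processed pseudogene Ndufb4c had 149 to 486 counts per library, and reads of Ndufb4, which it resembles, may be shared with it. Ndufab1-ps had 34 counts in the Tc0 library and 34 in the CoA library of mouse 728, and 1 to 14 in the 7 others.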
